A study of Homo sapiens with 12 samples.

Results

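Small nucleolar RNAs (snoRNAs) were followed in 12 poly-T-selected RNA-seq libraries labelled SKOV3 and SKOV3/DDP, each untreated or given paeonol (PAE). The study describes both as ovarian cancer lines, and the markers of the libraries labelled SKOV3/DDP are given below. The count tables name 46350 genes, of which 541 carry the snoRNA biotype. Members were the snoRNA genes with at least 10 counts summed over the 12 libraries, which left 205 genes. By name, 121 of them are SNORD genes, 84 are SNORA genes and 0 are SCARNA genes. A further 248 snoRNA genes had no count in any library and 88 had 1 to 9 counts. SNORD1B and SNORD62A lay just outside the limit at 9 counts, while SNORD11B, SNORD121A, SNORD13C and SNORD67 lay just inside it at 10 counts.

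The SKOV3 group was untreated cells of a cisplatin-sensitive epithelial ovarian cancer line, and the SKOV3_PAE group was the same line given PAE, a small phenol from the peony root. SKOV3/DDP is the line that the study pairs with SKOV3 as its chemoresistant counterpart, and it was sequenced untreated (SKOV3/DDP) and given PAE (SKOV3/DDP_PAE). Each of the 4 groups held 3 libraries. The labels give no dose and no duration of PAE, and no agent for the untreated groups. The comparisons ask how snoRNA genes differ between the lines labelled SKOV3 and SKOV3/DDP, how each line differs with PAE, and whether the PAE difference is alike in both lines.

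SnoRNAs are short nuclear RNAs that guide chemical modification of ribosomal RNA (rRNA) by base pairing. Box C/D snoRNAs, the SNORD genes, direct ribose methylation by fibrillarin, and box H/ACA snoRNAs, the SNORA genes, direct the change of uridine to pseudouridine by dyskerin. Nearly all human snoRNAs lie within introns of a host gene, often a ribosomal protein gene or a non-coding transcript whose chief product is its snoRNAs, and are cut from the spliced-out intron, whereas a few such as U3 have promoters of their own. Mature snoRNAs carry no poly-A tail. The counts over a snoRNA gene in poly-T-selected libraries may therefore come from the mature RNA or from host transcripts that still hold the intron, and these cannot be told apart here.

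The sequences of 164 of the 205 members were read from GENCODE 29 transcripts, placed on the genome build GRCh38. Those printed here were chosen because the results turn on them, in lower case with the box motifs in capitals. Each lies inside its host gene, on the host's strand. For SNORD genes the capitals mark TGATGA, the core of box C, within the first 20 bases and CTGA, box D, within the last 16 bases. For SNORA genes they mark ACA within the last 10 bases.
SNORD31: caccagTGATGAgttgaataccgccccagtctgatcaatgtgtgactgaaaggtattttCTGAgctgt
SNORD28: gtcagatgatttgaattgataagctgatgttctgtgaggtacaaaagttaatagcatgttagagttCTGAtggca
SNORD47: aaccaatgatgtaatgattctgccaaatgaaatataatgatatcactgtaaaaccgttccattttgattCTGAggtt
SNORD80: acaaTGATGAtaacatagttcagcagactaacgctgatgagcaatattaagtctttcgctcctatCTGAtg
SNORD88B: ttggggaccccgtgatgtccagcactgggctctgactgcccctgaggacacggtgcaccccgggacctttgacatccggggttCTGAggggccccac
SNORD23: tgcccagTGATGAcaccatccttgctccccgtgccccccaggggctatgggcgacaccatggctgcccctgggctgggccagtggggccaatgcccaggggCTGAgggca
SNORA70: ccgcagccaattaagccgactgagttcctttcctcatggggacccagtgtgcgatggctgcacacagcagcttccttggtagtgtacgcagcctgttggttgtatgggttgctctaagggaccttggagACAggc
SNORA81: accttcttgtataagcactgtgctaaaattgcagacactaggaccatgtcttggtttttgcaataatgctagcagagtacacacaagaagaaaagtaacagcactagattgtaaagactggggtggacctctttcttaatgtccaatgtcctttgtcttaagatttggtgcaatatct
SNORA52: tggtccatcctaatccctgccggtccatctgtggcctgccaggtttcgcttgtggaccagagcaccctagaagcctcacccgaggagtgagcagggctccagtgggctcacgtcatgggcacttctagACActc
SNORD31 (chr11:62853326-62853393, minus strand) and SNORD28 (chr11:62854621-62854695, minus strand) belong to the non-coding host SNHG1, and SNORD47 (chr1:173864369-173864445, minus strand) and SNORD80 (chr1:173864833-173864903, minus strand) to the non-coding host GAS5. SNORA70 (chrX:154400281-154400415, plus strand) lies in RPL10 and SNORA52 (chr11:811681-811814, plus strand) in RPLP2, both genes of ribosomal proteins. SNORD88B (chr19:50799029-50799125, minus strand) lies in C19orf48, SNORD23 (chr19:47755853-47755962, plus strand) in NOP53, a gene of ribosome biogenesis, and SNORA81 (chr3:186786675-186786852, plus strand) in EIF4A2, a translation initiation helicase.

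On the snoRNA strand, TGATGA stood in the first 20 bases of 58 of 93 SNORD sequences (62.4%) and of 0 of 71 SNORA sequences. CTGA stood in the last 16 bases of 87 of 93 SNORD sequences (93.5%) and of 3 of 71 SNORA sequences (4.23%). ACA stood in the last 10 bases of 64 of 71 SNORA sequences (90.1%) and of 14 of 93 SNORD sequences (15.1%). The names and the box motifs thus point to the same split in most members. Only exact matches were counted, so a box that differs by a base was missed. The GC content of the 164 sequences ran from 30.9% to 72.4%, with a median of 43.2% for SNORD and 47.4% for SNORA. Of the sequences printed above, SNORD47 holds 31.2% G and C and SNORD23 holds 70.0%.

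Members were short, with a median of 77.0 bases for SNORD (55 to 237) and 134.5 bases for SNORA (86 to 250). A host gene on the same strand enclosed 197 of the 205 members. Of these, 48 lay in a long non-coding host, 145 in a protein-coding host and 4 in a pseudogene, and 52 lay in 27 ribosomal protein genes. An annotated exon of another gene on the same strand overlapped 112 members, and 75 of these were covered by a transcript of the retained-intron class. In all, 10 members share a run of 25 bases with another member (3 SNORA15 copies, SNORA5A with SNORA5B, 3 SNORD3 copies, and SNORD45A with SNORD45C), so that reads could be split between the copies.

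The libraries held 14610008 to 18263479 counts, and the 205 members took 456 to 4085 of them per library, or 0.00264% to 0.0235%. Untreated SKOV3 stood apart from the other 9 libraries, with 17951 to 18240 genes detected against 21469 to 23194, and with TMM scaling factors of 0.644 to 0.674 against 0.975 to 1.23. The cell line labels were checked against markers. The 9 epithelial ovarian carcinoma markers (PAX8, SOX17, MUC16, KRT7, KRT8, KRT18, EPCAM, ERBB2 and WT1) together had 8755 ± 372 CPM (counts scaled to a common library size) in SKOV3 and 9860 ± 1196 CPM in SKOV3/DDP (mean ± SD, n = 3), and of the 7 tested 3 were higher and 4 lower in SKOV3/DDP. Cytokeratin gene KRT7, a marker of most ovarian carcinomas, had 21668 to 43108 counts in the 6 SKOV3 libraries and 9 to 38 counts in the 6 libraries labelled SKOV3/DDP. The 5 intestinal epithelium markers (CDX1, CDX2, CDH17, LGALS4 and VIL1) together had 0.664 ± 0.356 CPM in SKOV3 and 559 ± 24.5 CPM in SKOV3/DDP, and all 5 were higher in SKOV3/DDP than in SKOV3 both without and with PAE. The libraries labelled SKOV3/DDP thus held the epithelial keratins KRT8 and KRT18, were near 0 for KRT7 and carried intestinal markers that SKOV3 lacked, and the part of this in the snoRNA results was not tested. The lines are named here as the labels name them.

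snoRNA genes were detected far less often in untreated SKOV3 than in the other groups. Genes as a whole were also detected less often there, with 17951 to 18240 per library against 21469 to 23194 in the other 9 libraries. The share of genes with like counts that untreated SKOV3 lacked was not measured. The gap is therefore not read as particular to snoRNA genes. Of the 205 members, 66 to 85 had a count in a library of untreated SKOV3, against 165 to 183 in SKOV3_PAE, 178 to 189 in SKOV3/DDP and 187 to 191 in SKOV3/DDP_PAE. In all 3 untreated SKOV3 libraries together, 99 members (67 SNORD and 32 SNORA) had no count, which allows a level of up to 0.0862 CPM for each by counting error alone. The corresponding numbers were 4 members in SKOV3_PAE, 3 in SKOV3/DDP and 1 in SKOV3/DDP_PAE. Counts were found in each of the other 9 libraries for 45 of the members that untreated SKOV3 lacked. Where a sequence was at hand, the members without a count in untreated SKOV3 had a median GC content of 40.2% (78 members) and those with a count 49.4% (86 members).

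Summed over the 205 members, the TMM-normalised level was 58.1 ± 15.8 CPM in SKOV3, 93.1 ± 12.1 CPM in SKOV3_PAE, 142 ± 21.6 CPM in SKOV3/DDP and 167 ± 23.4 CPM in SKOV3/DDP_PAE (mean ± SD, n = 3). SNORD genes contributed 30.4 ± 9.43, 53.0 ± 11.6, 77.8 ± 10.3 and 91.7 ± 12.3 CPM, and SNORA genes 27.7 ± 7.10, 40.1 ± 0.794, 64.0 ± 11.3 and 75.3 ± 11.2 CPM in the same order. The order of the groups was the same for both classes. The ranges of SKOV3_PAE and of each SKOV3/DDP group did not overlap in the summed level over all members, whereas SKOV3/DDP (119 to 161 CPM) and SKOV3/DDP_PAE (146 to 192 CPM) overlapped. In bulk libraries fewer cells of a kind and less RNA per cell cannot be told apart. Other short RNA genes did not all follow this order: microRNA genes, most of which also lie in introns, summed to 52.7, 66.1, 106 and 95.0 CPM, and transfer RNA genes to 1321, 133, 361 and 376 CPM. Ribosomal RNA rows did follow it, at 1076, 2007, 12867 and 30139 CPM with no overlap between groups. Small nuclear RNA rows ran from 12.6 CPM in SKOV3 to 5.76, 2.76 and 2.98 CPM, and 6 other RNAs without a poly-A tail (RN7SK, RN7SL1, RN7SL2, RMRP, RPPH1 and TERC) together from 6.46 to 4.34, 1.76 and 0.738 CPM. The part of these shifts in the snoRNA levels was not tested.

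**Figure D1:**
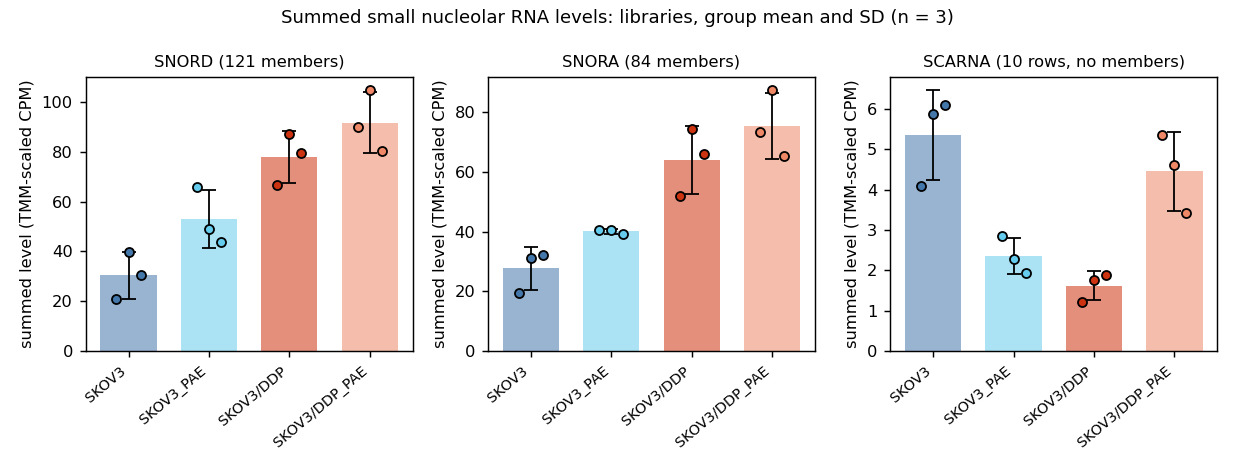
Summed TMM-normalised CPM (vertical axes) of the 121 SNORD members, the 84 SNORA members and the 10 SCARNA genes with at least 10 counts in the 4 groups, with bars for the mean, error bars for the SD and points for the 3 libraries. SNORD and SNORA sums were lowest in SKOV3 and highest in SKOV3/DDP_PAE, while the SCARNA sum was lowest in SKOV3/DDP.

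Per kilobase of gene length, the highest mean levels over the 12 libraries belonged to SNORD80 (52.7 CPM per kilobase), SNORA70 (48.2), SNORD31 (37.5) and SNORD55 (33.9). The order is that of the pooled libraries and differs between groups, since SNORD31 had a mean of 0 CPM and SNORD55 one of 3.81 CPM in untreated SKOV3. Most members were far lower, since the median member had 65.0 counts in all libraries together, and the 10 members with the most counts held 26.6% of the 24258 member counts. A single count was worth 0.0470 to 0.0887 CPM. SNORA70, which guides pseudouridylation of the small-subunit rRNA, had the most counts, 1379. Its level was 1.60, 3.75 and 4.07 CPM in SKOV3, 2.56, 4.27 and 6.42 in SKOV3_PAE, 5.54, 12.8 and 8.39 in SKOV3/DDP, and 9.96, 12.9 and 5.78 in SKOV3/DDP_PAE. The SKOV3/DDP libraries all lay above the untreated SKOV3 libraries, and the groups with PAE overlapped. The heat map of the members by library shows a block of SNORD and SNORA genes at 0 in the 3 untreated SKOV3 libraries and at low but measurable levels elsewhere.

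**Figure D2:**
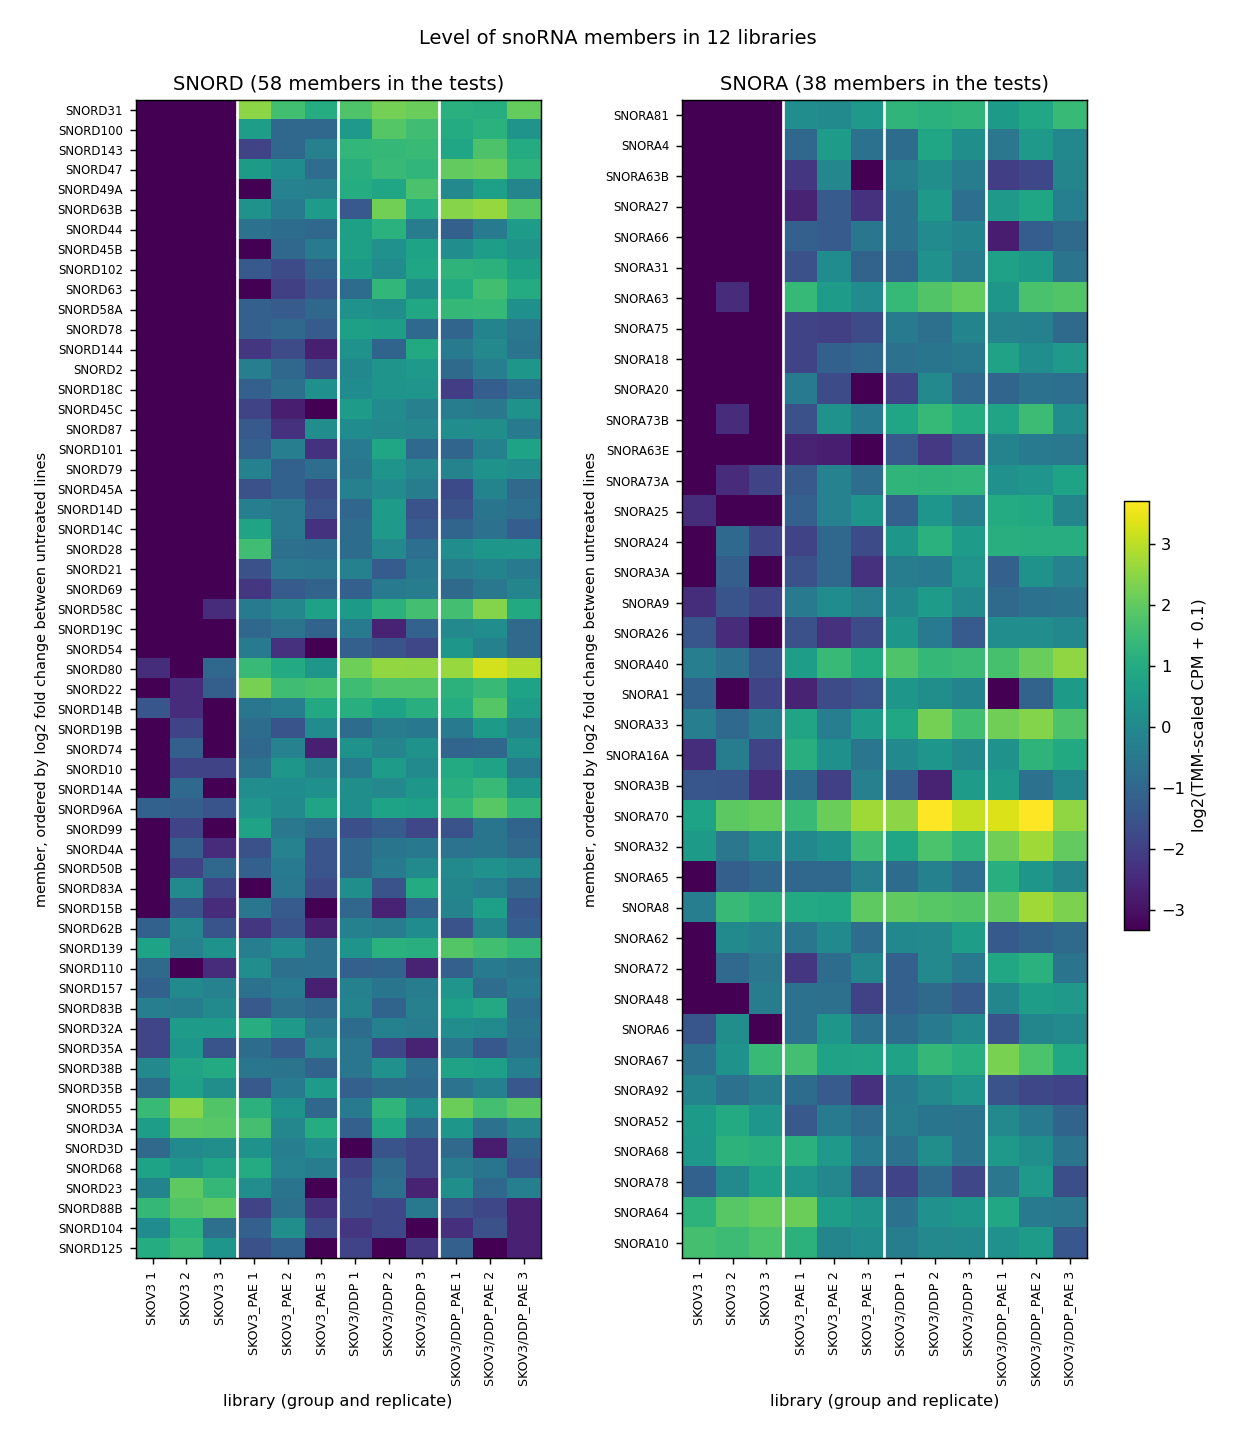
Level of each tested member in each of the 12 libraries, as log2(CPM + 0.1) on the colour scale, with 58 SNORD and 38 SNORA genes in rows ordered by the fold change between the untreated lines. The upper members of each panel are dark in the 3 untreated SKOV3 libraries and lighter in the other 9 libraries, and the lowest rows are lightest in untreated SKOV3.

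The test across genes was run on 17133 genes with enough counts, and 96 members (58 SNORD and 38 SNORA) were among them. These 96 held 84.1% of the members' counts, and 37 of them had no count in untreated SKOV3. Such a gene could pass only through the groups in which it was higher, so the numbers of members called below describe the 96 and not the 205.

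In the untreated lines, most tested snoRNA genes were higher in SKOV3/DDP than in SKOV3. Of the 96 tested members, 60 were higher (62.5%) and 13 were lower (13.5%) at an adjusted p under 0.05 (edgeR quasi-likelihood test, Benjamini-Hochberg adjusted), and 23 did not pass. The background was large: of all 17133 genes, 81.8% passed, 45.8% higher and 36.0% lower. Tested members had a median log2 fold change of 2.97 and all genes one of 0.54, and setting the 37 members without a count in SKOV3 to the lowest fold that their counts allow gave a median of 2.57. Those 37 could enter only through groups where they were higher, so the 62.5% is not read as an excess over 45.8%. Both classes took part, with 36 higher and 8 lower of 58 SNORD genes, and 24 higher and 5 lower of 38 SNORA genes.

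The members with the largest folds were mostly SNORD genes, and lay in non-coding hosts, a ribosomal protein gene or a translation gene. All those named in this paragraph had no count in untreated SKOV3, so their order is that of their counts in SKOV3/DDP. SNORD31, a methylation guide for the large-subunit rRNA, had 0, 0 and 0 CPM in SKOV3 and 3.34, 4.61 and 4.16 CPM in SKOV3/DDP. It was therefore at least 46.6-fold higher in SKOV3/DDP, with the untreated SKOV3 group set at 3 counts in all (adjusted p = 1.96e-06, edgeR quasi-likelihood test, Benjamini-Hochberg adjusted). SNORD100 in RPS12 was at 0 in all 3 SKOV3 libraries and at 1.27, 3.54 and 2.82 CPM in SKOV3/DDP, at least 29.1-fold higher (adjusted p = 2.47e-05). SNORD143, within the antisense transcript THAP9-AS1, was likewise at 0 in SKOV3 and at 2.42, 2.46 and 2.57 CPM in SKOV3/DDP, which was at least 28.8-fold (adjusted p = 6.49e-06). In none of these 3 members did the libraries of the lines overlap. SNORD47 in GAS5 rose at least 26.9-fold (0 in SKOV3, 2.02, 2.59 and 2.39 CPM in SKOV3/DDP, adjusted p = 4.44e-06). SNORD49A in SNHG29 rose at least 26.2-fold (0 against 1.96, 1.70 and 3.12 CPM, adjusted p = 0.000178). SNORA81 in EIF4A2, the leading SNORA gene, also rose at least 26.2-fold (0 against 2.31, 2.15 and 2.33 CPM, adjusted p = 1.86e-06).

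Other abundant members had counts in untreated SKOV3. SNORD80, a methylation guide in GAS5, had 0.0887, 0 and 0.424 CPM in SKOV3 and 4.33, 5.87 and 5.75 CPM in SKOV3/DDP, a log2 fold change of 4.89 ± 0.63 (SE, adjusted p = 3.78e-06, edgeR quasi-likelihood test, Benjamini-Hochberg adjusted). SNORD22, which lies in SNHG1 and is known for a part in small-subunit rRNA processing, had 0, 0.0852 and 0.339 CPM against 2.77, 3.35 and 3.31 CPM (4.38 ± 0.63, adjusted p = 1.21e-05). SNORA40 in TAF1D had 0.709, 0.511 and 0.254 CPM against 3.34, 2.46 and 2.69 CPM (2.51 ± 0.47, adjusted p = 0.000156). In none of these 3 did the lines overlap. SNORA33 in RPS12 rose by 2.33 ± 0.50 (adjusted p = 0.000483), SNORA70 by 1.5 ± 0.46 (adjusted p = 0.00744) and SNORA32 in TAF1D by 1.34 ± 0.51 (adjusted p = 0.0243). The SNORA32 call was lost without SKOV3 replicate 2, SKOV3 replicate 3 or SKOV3/DDP replicate 2. It was also lost, at 0.19, once each library's trend with base composition and length was removed. SNORA8 (0.97 ± 0.46, adjusted p = 0.0641) and SNORA67 (0.51 ± 0.55, adjusted p = 0.398) did not pass.

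The 13 members that fell were 8 SNORD and 5 SNORA genes, led by SNORD genes. SNORD125, a SNORD gene in AP1B1, had 1.95, 2.64 and 1.19 CPM in SKOV3 and 0.173, 0 and 0.122 CPM in SKOV3/DDP (log2 fold change -4.16 ± 1.02, adjusted p = 0.00147, edgeR quasi-likelihood test, Benjamini-Hochberg adjusted). SNORD104 in SNHG25 had 0.975, 2.13 and 0.509 CPM against 0.115, 0.189 and 0 CPM (-3.48 ± 0.91, adjusted p = 0.00253). SNORD88B had 2.48, 3.41 and 3.81 CPM against 0.231, 0.189 and 0.612 CPM (-3.21 ± 0.63, adjusted p = 0.000228). Each of these was higher in all 3 SKOV3 libraries than in any SKOV3/DDP library. SNORD23 fell by 3.13 on the log2 scale (SE 0.93, adjusted p = 0.00581) and SNORD68 in RPL13 fell by 2.44 (SE 0.62, adjusted p = 0.0019). SNORD3D, a copy of U3, which acts in the first cleavages of the rRNA precursor, fell by 2.43 (SE 0.84, adjusted p = 0.0148), a call lost without SKOV3/DDP replicate 1. The copy SNORD3A, which shares sequence with it, had 1.42, 3.75 and 3.56 CPM against 0.346, 1.77 and 0.428 CPM and fell by 1.78 (SE 0.66, adjusted p = 0.0206). The SNORD3A groups overlapped. The SNORD3D call was also lost by library size only and with the base composition and length trend removed. With that trend removed, SNORD125 and SNORD104 had log2 fold changes of -1.67 and -1.94 and lost their calls. SNORD88B and SNORD23 turned to 0.22 and 0.14, and SNORD68 kept its call.

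With PAE, SKOV3 cells had more counts for many snoRNA genes. Of the 96 tested members, 50 were higher (52.1%) and 6 lower (6.25%) in SKOV3_PAE than in SKOV3, against a background in which 75.3% of all genes passed, 42.6% higher and 32.7% lower. Tested members had a median log2 fold change of 2.5, or 1.64 with the members at 0 in SKOV3 set to their bound, and all genes one of 0.48. The 37 tested members at 0 in SKOV3 entered only through other groups, so the 52.1% is not read as an excess over 42.6%. SNORD genes passed as higher in 34 cases and as lower in 5, and SNORA genes as higher in 16 and as lower in 1. This comparison and that of the untreated lines share the 3 untreated SKOV3 libraries, so their results are not independent of each other.

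SNHG1 held the members with the largest rise. SNORD31 went from 0 in all 3 SKOV3 libraries to 5.46, 2.89 and 1.95 CPM in SKOV3_PAE, at least 39.0-fold (adjusted p = 3.22e-06, edgeR quasi-likelihood test, Benjamini-Hochberg adjusted). SNORD28, a methylation guide for the small-subunit rRNA, went from 0 to 2.85, 0.508 and 0.474 CPM, at least 14.1-fold (adjusted p = 0.000408). SNORD22 went from 0, 0.0852 and 0.339 CPM to 4.71, 2.84 and 3.05 CPM, a log2 fold change of 4.55 ± 0.63 (adjusted p = 8.83e-06). All 3 were above untreated SKOV3 in every SKOV3_PAE library, and SKOV3_PAE replicate 1 held the highest value of each. SNORA81 was at 0.988, 0.914 and 1.26 CPM with PAE and at 0 without, at least 12.2-fold (adjusted p = 1.71e-05), and SNORA4, its neighbour in EIF4A2, was at 0.407, 1.37 and 0.526 CPM, at least 9.13-fold (adjusted p = 0.000683). SNORD63B in HSPA9 (1.1, 0.660 and 1.37 CPM, at least 12-fold, adjusted p = 0.00137) and SNORD47 (1.34, 0.965 and 0.474 CPM, at least 10.6-fold, adjusted p = 6.53e-05) were also at 0 without PAE. SNORD80 rose by 3.41 ± 0.65 (adjusted p = 0.000202) and SNORA40 by 1.99 ± 0.47 (adjusted p = 0.00135). The SNORA40 call was lost, at 0.73, with the base composition and length trend removed.

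The 6 members that fell with PAE in SKOV3 were 5 SNORD genes and SNORA52. By library size only, SNORA52, SNORD23, SNORD55 and SNORD38B lost this call. With the trend with base composition and length removed, SNORD88B, SNORD23, SNORD55 and SNORA52 turned to positive log2 fold changes of 0.47, 1.89, 1.84 and 2.16. SNORD125 had -0.33 and lost its call. SNORD88B had 0.174, 0.508 and 0.105 CPM with PAE, below each of the 3 untreated libraries (2.48, 3.41 and 3.81 CPM), and its log2 fold change was -3.57 ± 0.64 (adjusted p = 0.000112, edgeR quasi-likelihood test, Benjamini-Hochberg adjusted). SNORD125 had 0.232, 0.355 and 0 CPM with PAE (-3.25 ± 0.92, adjusted p = 0.00472). SNORA52, a pseudouridylation guide for the large-subunit rRNA, had 1.33, 1.87 and 1.19 CPM without and 0.291, 0.660 and 0.474 CPM with PAE (-1.60 ± 0.50, adjusted p = 0.00898). None of the 3 had overlapping groups. SNORD55 and SNORD38B, both methylation guides, fell by 1.61 (SE 0.57, adjusted p = 0.0179) and by 1.53 (SE 0.52, adjusted p = 0.0157). SNORD55 had 2.57, 5.45 and 3.39 CPM without and 2.21, 1.12 and 0.421 CPM with PAE, and SNORD38B had 0.887, 1.62 and 1.86 CPM against 0.581, 0.559 and 0.368 CPM. The SNORD55 call was lost without SKOV3 replicate 2, SKOV3_PAE replicate 2 or SKOV3_PAE replicate 3, and the SNORD38B call without SKOV3 replicate 3 or SKOV3_PAE replicate 3. SNORD23 fell by 2.20 (SE 0.85, adjusted p = 0.0293), with 0.798, 3.83 and 2.46 CPM without and 0.988, 0.559 and 0 CPM with PAE. Its groups overlapped, and the call was lost without SKOV3 replicate 2 or 3 or SKOV3_PAE replicate 2 or 3.

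In SKOV3/DDP, snoRNA genes differed little with PAE. Of the 96 tested members 0 passed as higher and 2 as lower, where 26.4% of all genes passed, 11.8% higher and 14.7% lower (edgeR quasi-likelihood test, Benjamini-Hochberg adjusted). At an unadjusted p under 0.05, 5 members were higher and 4 lower, and the median log2 fold change was 0.36. DESeq2 called 1 member higher and 1 lower, and limma-voom 4 higher and 3 lower. SNORA92 in TMEM184B, a SNORA gene, had 0.634, 0.884 and 1.16 CPM without and 0.245, 0.188 and 0.165 CPM with PAE, with no overlap (-2.12 ± 0.59, adjusted p = 0.0162). SNORD18C in RPL4 had 0.980, 1.14 and 1.16 CPM without and 0.147, 0.329 and 0.495 CPM with PAE, also with no overlap (-1.74 ± 0.61, adjusted p = 0.0493). The SNORD18C call was lost without any of 11 of the 12 libraries, and by DESeq2, by library size only, with no filter and with the replicate block. Leaving out single libraries gave 0 to 4 members: 0 without SKOV3/DDP replicate 3, SKOV3/DDP_PAE replicate 2 or SKOV3/DDP_PAE replicate 3, 1 without SKOV3 replicate 3, SKOV3_PAE replicate 2, SKOV3/DDP replicate 1 or SKOV3/DDP_PAE replicate 1, and 4 without SKOV3/DDP replicate 2. SNORD31 had 2.11, 1.97 and 4.07 CPM with PAE and 3.34, 4.61 and 4.16 CPM without, overlapping groups that gave a log2 fold change of -0.57 ± 0.45 (adjusted p = 0.379). SNORD80 had 6.13, 9.21 and 7.37 CPM with PAE, above its 3 untreated values but without passing (0.51 ± 0.44, adjusted p = 0.426). Most folds were small beside their SE, and a p that misses the threshold does not show that the levels were alike.

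With PAE in both lines, 27 of the 96 tested members were higher in SKOV3/DDP (28.1%) and 0 were lower, while 54.5% of all genes passed, 27.5% higher and 27.1% lower (edgeR quasi-likelihood test, Benjamini-Hochberg adjusted). At an unadjusted p under 0.05 there were 32 higher and 2 lower members. The share of members called higher was thus near the background, and the share called lower was below it. The 27 were 15 SNORD and 12 SNORA genes, the median log2 fold change was 0.95 over tested members and 0.06 over all genes, and no untreated SKOV3 library enters the values compared. Of the 60 members higher in the untreated SKOV3/DDP libraries, 23 were also higher here, which is 38.3% of the 60 and 85.2% of the 27. Those 60 were already most of the 96 tested members, and members at 0 in untreated SKOV3 entered only through other groups. Of all genes, 45.8% were higher in the untreated comparison. The overlap is therefore not read as agreement between the comparisons. SNORD55 was lower in the untreated and higher in the PAE comparison of the lines, but the first call was lost without SKOV3 replicate 2, SKOV3/DDP replicate 1 or SKOV3/DDP replicate 3 and by library size only, and turned to a log2 fold change of 1.25 with the base composition and length trend removed. The second was lost without SKOV3_PAE replicate 2 or 3 or SKOV3/DDP_PAE replicate 1 or 3 and with that trend removed. The members SNORD139, SNORD38B and SNORD83B passed in the PAE comparison and missed the threshold in the untreated one.

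SNORA63E in the non-coding transcript LINC00888 had the largest fold between the lines with PAE. It had 0.0581, 0.0508 and 0 CPM, 2 counts in all, in SKOV3_PAE and 0.785, 0.658 and 0.605 CPM in SKOV3/DDP_PAE, a ratio of 19.2 (95% exact counting interval 4.97 to 163, adjusted p = 0.000989, edgeR quasi-likelihood test, Benjamini-Hochberg adjusted). SNORD63 in HSPA9 had 0, 0.152 and 0.263 CPM against 1.91, 2.87 and 1.93 CPM (log2 fold change 3.91 ± 0.80, adjusted p = 0.00111). SNORD45C in RABGGTB had 0.174, 0.0508 and 0 CPM against 0.687, 0.611 and 1.1 CPM (3.33 ± 0.79, adjusted p = 0.0031). The lines did not overlap in any of these. SNORA27 and SNORD102, which both lie in RPL21, were higher, SNORA27 with 0.0581, 0.305 and 0.105 CPM against 1.28, 1.69 and 0.715 CPM (2.90 ± 0.71, adjusted p = 0.00364) and SNORD102 with 0.291, 0.203 and 0.368 CPM against 2.31, 2.21 and 1.49 CPM (2.77 ± 0.51, adjusted p = 0.000482). SNORA24, a pseudouridylation guide for the small-subunit rRNA in SNHG8, had 0.174, 0.406 and 0.210 CPM against 2.06, 1.97 and 1.98 CPM (2.88 ± 0.61, adjusted p = 0.00101). It was also higher in untreated SKOV3/DDP, with 0, 0.426 and 0.170 CPM against 1.21, 2.15 and 1.35 CPM (2.92 ± 0.68, adjusted p = 0.00105). SNORD139 in RPL3 was at 0.697, 0.965 and 0.526 CPM in SKOV3_PAE and 3.48, 2.91 and 2.42 CPM in SKOV3/DDP_PAE (2.0 ± 0.44, adjusted p = 0.00127). The call of SNORA70 (1.1 ± 0.45, adjusted p = 0.0461) was lost without any of 6 single libraries, and that of SNORD38B (1.3 ± 0.51, adjusted p = 0.0425) without any of 8.

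The PAE difference itself differed between the lines for 48 of the 96 tested members (interaction term, edgeR quasi-likelihood test, Benjamini-Hochberg adjusted). It was more positive in SKOV3/DDP for 6 members (6.25%) and more negative for 42 (43.8%), where 62.9% of all genes passed, 25.5% more positive and 37.4% more negative. The median interaction was -2.38 over tested members and -0.62 over all genes. The 42 were 30 SNORD and 12 SNORA genes, and the 6 were 5 SNORD genes and SNORA52. The interaction shares the untreated SKOV3 libraries with the comparisons above, and a member at 0 in those libraries has an interaction whose size depends on the fit's prior count. Such a member entered only through other groups, so its PAE effect in SKOV3 could not be negative. The 43.8% is therefore not read as an excess over 37.4%.

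SNORD55 shows the positive kind: it had 2.57, 5.45 and 3.39 CPM in SKOV3, 2.21, 1.12 and 0.421 in SKOV3_PAE, 0.634, 2.34 and 1.04 in SKOV3/DDP, and 4.27, 2.96 and 3.74 in SKOV3/DDP_PAE. It was lower with PAE in every SKOV3 library than in any without, and higher with PAE in every SKOV3/DDP library than in any without, and its interaction was 3.06 ± 0.80 (log2, adjusted p = 0.00352, edgeR quasi-likelihood test, Benjamini-Hochberg adjusted). In SKOV3/DDP alone the difference was 1.45 ± 0.56 (adjusted p = 0.0692). SNORD38B had 0.577, 1.07 and 0.490 CPM in SKOV3/DDP and 1.57, 1.46 and 0.715 CPM in SKOV3/DDP_PAE, and an interaction of 2.33 ± 0.73 (adjusted p = 0.011). SNORD23 (3.62 ± 1.27, adjusted p = 0.0211), SNORD88B (2.55 ± 1.00, adjusted p = 0.0365), SNORD83B (1.87 ± 0.79, adjusted p = 0.0498) and SNORA52 (1.69 ± 0.71, adjusted p = 0.0478) were the others. Their calls rested on single libraries in part: SNORD23 lost its call without SKOV3 replicate 2 or SKOV3/DDP_PAE replicate 1, and SNORD88B, SNORD83B and SNORA52 without any of 8, 11 and 10 of the 12 libraries. SNORD55 and SNORD38B kept theirs without each of the 12, but SNORD38B lost its call by library size only (1.66), and the SNORD55 interaction turned to -0.066 once the trend with base composition and length was removed.

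Among the 42, SNORD31 had a level of 0 in SKOV3 that PAE libraries exceeded (1.95 to 5.46 CPM), whereas in SKOV3/DDP the libraries with and without PAE overlapped (adjusted p of the interaction 1.41e-05, edgeR quasi-likelihood test, Benjamini-Hochberg adjusted). SNORA81 behaved alike, at 0 in SKOV3, 0.914 to 1.26 CPM in SKOV3_PAE and 1.32 to 2.64 CPM over the SKOV3/DDP libraries (adjusted p = 6.99e-05). SNORD18C passed in both lines with opposite signs, though its call in SKOV3/DDP was lost without any of 11 libraries: it rose at least 7.47-fold with PAE in SKOV3 (0 against 0.349, 0.508 and 1.05 CPM, adjusted p = 0.00049) and fell in SKOV3/DDP, with an adjusted p of 0.000218 for the interaction. SNORD14C in HSPA8, a copy of U14 that serves both rRNA cleavage and methylation, was at 0 in SKOV3, at 1.63, 0.609 and 0.105 CPM in SKOV3_PAE, at 0.461, 1.26 and 0.306 CPM in SKOV3/DDP and at 0.392, 0.517 and 0.330 CPM in SKOV3/DDP_PAE (adjusted p = 0.00513). SNORA66 in RPL5 (adjusted p = 0.00153) and SNORD49A (adjusted p = 0.00451) were likewise at 0 in all 3 untreated SKOV3 libraries. SNORD22, which had counts in all 4 groups, had an interaction of -5.10 ± 0.79 (adjusted p = 4.47e-05).

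Since most snoRNAs are cut from a host transcript, members were set beside their hosts. Over the 90 tested members with a tested host (52 hosts), Spearman's rho between the log2 fold changes of member and host was 0.72 for the untreated lines, 0.67 for PAE in SKOV3, 0.21 for PAE in SKOV3/DDP and 0.56 for the lines with PAE. These are descriptions across genes that share libraries, and members of 1 host share its value. Of the 69 called members with a tested host in the untreated lines, 53 had a host called in the same direction, 3 in the opposite direction and 13 a host that did not pass. For PAE in SKOV3 the 55 called members split into 34, 7 and 14, and for the lines with PAE the 27 split into 16, 0 and 11. The scatter of members against hosts shows the members at 0 in SKOV3 as a band at high member values over a wide range of host values.

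**Figure D3:**
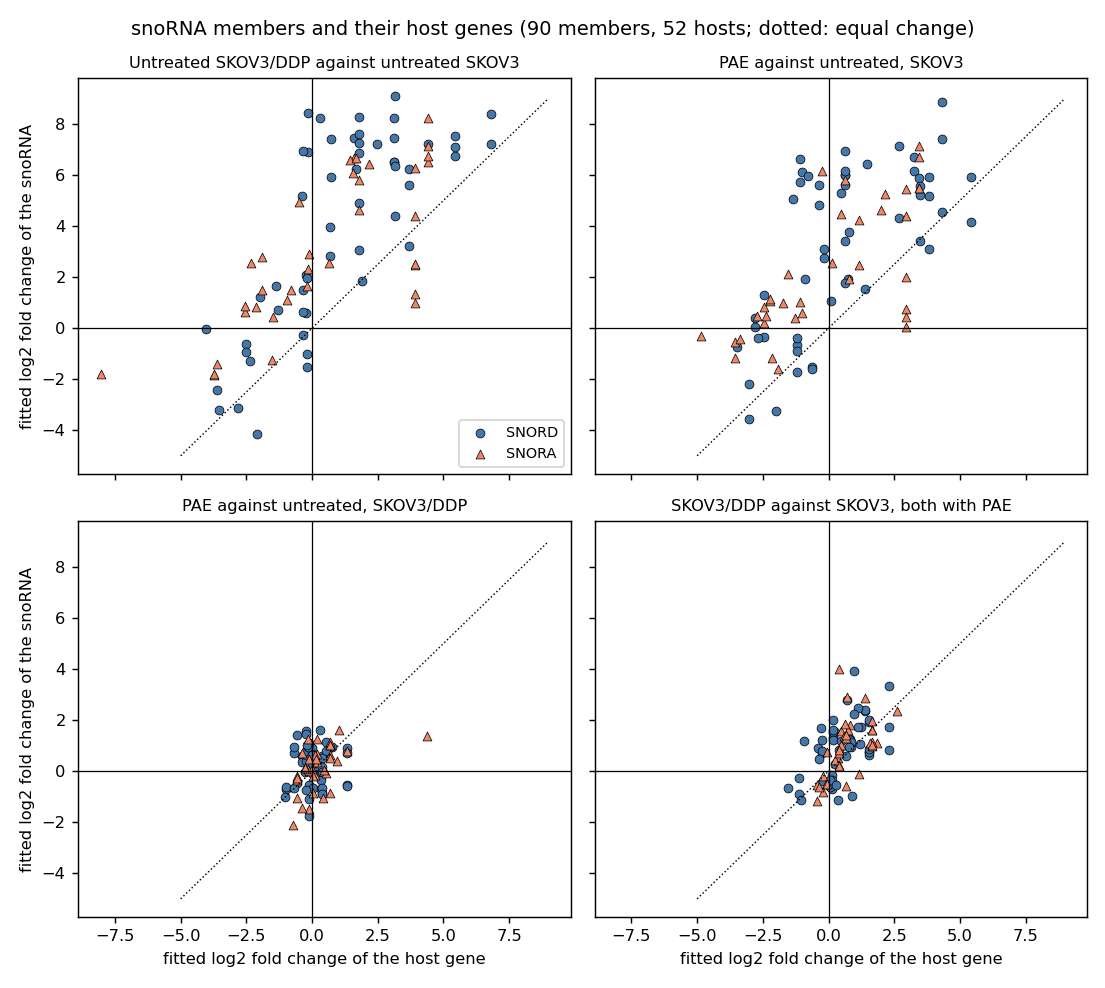
Log2 fold change of each of 90 tested members (vertical axis) against that of its host gene (horizontal axis) in the 4 comparisons between groups. Members and hosts lie along a rising band for the untreated lines and for PAE in SKOV3, and around 0 for PAE in SKOV3/DDP.

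SNHG1, a non-coding RNA whose introns hold 7 members, showed this at both levels. The members summed to 0.141 ± 0.176 CPM in SKOV3, 10.3 ± 6.04 in SKOV3_PAE, 8.83 ± 1.02 in SKOV3/DDP and 7.25 ± 1.06 in SKOV3/DDP_PAE (mean ± SD, n = 3), and the SNHG1 transcript was at 7.00 ± 3.89, 141 ± 105, 62.1 ± 30.7 and 156 ± 17.8 CPM. SNHG1 rose by 3.14 ± 0.54 between the untreated lines (adjusted p = 6.42e-05, edgeR quasi-likelihood test, Benjamini-Hochberg adjusted) and by 4.32 ± 0.56 with PAE in SKOV3 (adjusted p = 4.42e-06). Its 3 tested members, SNORD22, SNORD28 and SNORD31, passed as higher in both comparisons. In SKOV3/DDP the transcript had a log2 fold change of 1.33 ± 0.49 with PAE (adjusted p = 0.0575) while SNORD31, SNORD22 and SNORD28 had log2 fold changes of -0.57, -0.55 and 0.89, none of them passing.

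GAS5, a non-coding transcript with 11 members, is known to be broken down quickly while its snoRNAs are stable. Its members summed to 0.284 ± 0.175 CPM in SKOV3, 5.04 ± 1.80 in SKOV3_PAE, 14.4 ± 1.84 in SKOV3/DDP and 15.2 ± 1.81 in SKOV3/DDP_PAE, and GAS5 itself was at 50 ± 26.0, 77.7 ± 18.4, 174 ± 75.9 and 223 ± 43.4 CPM (mean ± SD, n = 3). All 6 tested members rose between the untreated lines, where GAS5 rose by 1.80 ± 0.39 (adjusted p = 0.000546, edgeR quasi-likelihood test, Benjamini-Hochberg adjusted). With PAE in SKOV3, 5 of the 6 rose, while GAS5 had a log2 fold change of 0.64 ± 0.38 that did not pass (adjusted p = 0.141). Whether members and host differ in their PAE response was not tested.

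TAF1D, a subunit of the RNA polymerase I factor SL1, holds 8 members. They summed to 3.56 ± 0.316, 7.59 ± 2.94, 11.7 ± 0.679 and 18.5 ± 2.87 CPM in SKOV3, SKOV3_PAE, SKOV3/DDP and SKOV3/DDP_PAE, and TAF1D was at 6.38 ± 0.0917, 49.1 ± 12.5, 95.3 ± 26.6 and 155 ± 2.20 CPM (mean ± SD, n = 3). Both series keep the same order of groups. All 5 members of EIF4A2 rose in the untreated and in the SKOV3 PAE comparison and had a negative interaction, as did EIF4A2 itself (4.41 ± 0.25, 3.43 ± 0.24 and -4.01 ± 0.32). SNHG3 holds SNORA73A and SNORA73B, copies of a snoRNA that acts in rRNA precursor cleavage rather than in modification. SNORA73A had 0, 0.0852 and 0.170 CPM in SKOV3 against 2.31, 2.27 and 2.39 CPM in SKOV3/DDP, a ratio of 26.9 (95% exact counting interval 8.99 to 133, adjusted p = 1.37e-05, edgeR quasi-likelihood test, Benjamini-Hochberg adjusted). SNORA73B had 1 count in SKOV3 and 1.67, 2.53 and 1.90 CPM in SKOV3/DDP (adjusted p = 3.88e-05), and SNHG3 itself rose by 1.79 ± 0.25 (adjusted p = 8.67e-06).

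Some ribosomal protein hosts and their snoRNAs were called in opposite directions, or only the host or the snoRNA was called. RPL13A was at 7287 ± 1089 CPM in SKOV3 and 1050 ± 13.4, 1275 ± 114 and 1094 ± 131 CPM in SKOV3_PAE, SKOV3/DDP and SKOV3/DDP_PAE (mean ± SD, n = 3). Its 4 members summed to 1.71 ± 1.18, 2.09 ± 0.725, 0.969 ± 0.151 and 1.78 ± 0.394 CPM, and the 2 tested ones, SNORD32A and SNORD35A, passed in none of the comparisons. RPL10 fell by 0.80 (SE 0.22, adjusted p = 0.00314, edgeR quasi-likelihood test, Benjamini-Hochberg adjusted) between the untreated lines, where its snoRNA SNORA70 rose. RPL27A fell by 1.89 (adjusted p = 1.12e-05) while SNORA3A rose by 2.78 ± 0.94 (adjusted p = 0.0131). SNORA9, in the non-coding host SNHG15, was the third such member: it had 0.0887, 0.256 and 0.170 CPM in SKOV3 and 0.865, 1.39 and 0.918 CPM in SKOV3/DDP (2.57 ± 0.58, adjusted p = 0.000767), while SNHG15 fell by 2.34 (adjusted p = 2.95e-05). In RPS12, all 3 tested members rose between the untreated lines, and the host had a log2 fold change of -0.16 ± 0.25 (adjusted p = 0.568). With PAE in SKOV3, the members called against their host were SNORA9, SNORD100, SNORD101, SNORD49A, SNORD54, SNORD87 and SNORD96A.

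**Figure D4:**
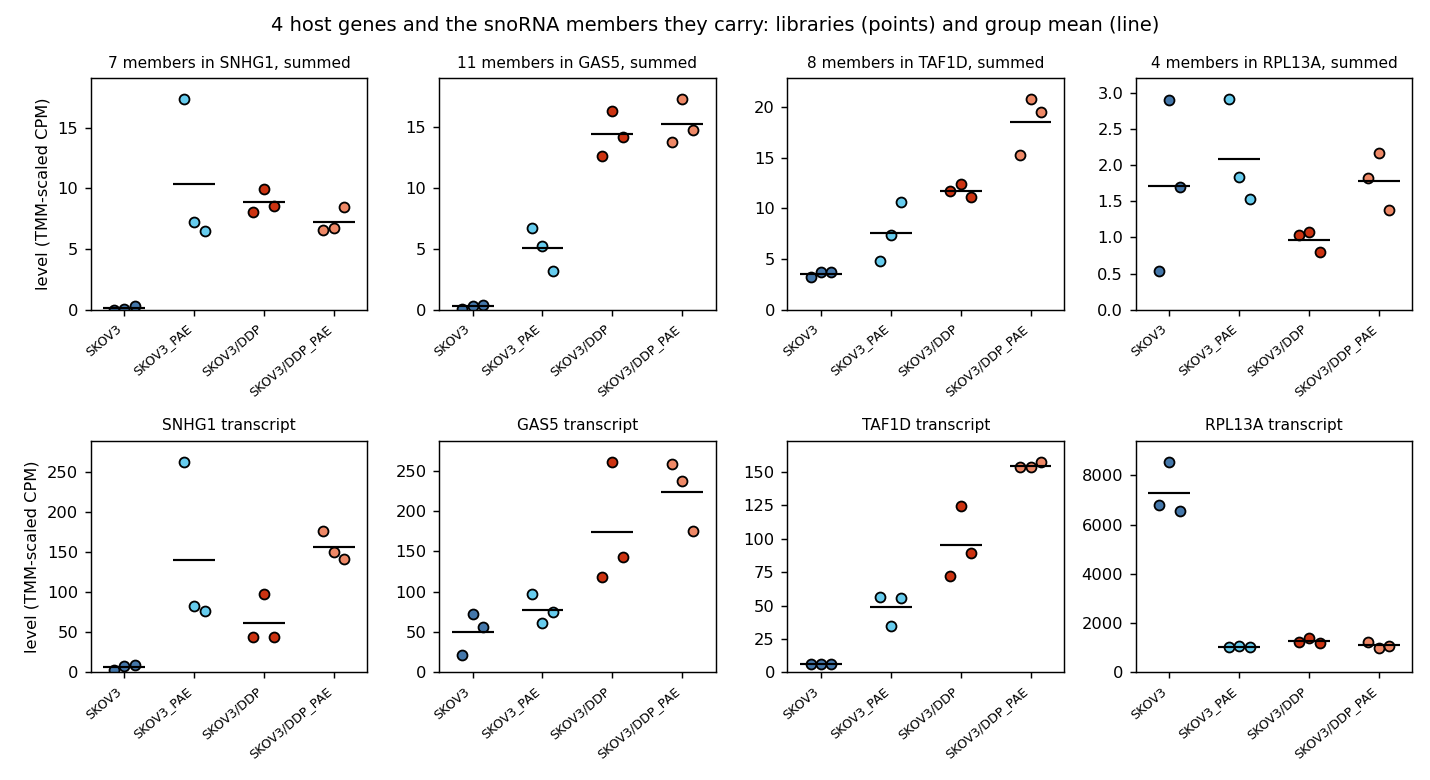
Summed CPM of the members (upper panels) and CPM of the host transcript (lower panels) of SNHG1, GAS5, TAF1D and RPL13A in the 4 groups, with points for the 3 libraries, a line for the group mean and a separate vertical scale in each panel. SNHG1, GAS5 and TAF1D members were lowest in SKOV3, as were their hosts, while RPL13A was highest in SKOV3 and its members were not.

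By kind of host, 20 of 24 tested members in long non-coding hosts were higher and 2 lower between the untreated lines, against 40 higher and 9 lower of 70 in protein-coding hosts. With PAE in SKOV3 the numbers were 17 and 0 against 33 and 6, and between the lines with PAE 9 and 0 against 18 and 0. Of the 26 tested members that overlap no annotated exon of another gene, 13 were higher and 3 lower between the untreated lines, 12 higher and 1 lower with PAE in SKOV3, and 6 higher and 0 lower between the lines with PAE. The 70 members that do overlap an exon gave 47 and 10, 38 and 5, and 21 and 0. The median log2 fold change between the untreated lines was 2.14 over the first and 3.57 over the second of these sets. Of all genes, 45.8% were higher and 36.0% lower between the untreated lines, 42.6% and 32.7% with PAE in SKOV3, and 27.5% and 27.1% between the lines with PAE. The 37 tested members at 0 in untreated SKOV3 entered only through other groups, so in the first 2 comparisons they could be called only as higher. The difference between the kinds of member was not tested, and these numbers are not read as a link between kind and direction.

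Direction also split with base composition. Members without a count in untreated SKOV3 had a median GC content of 40.2%, and those with a count 49.4%. The 37 tested members at 0 in untreated SKOV3 entered only through other groups. In the untreated lines and with PAE in SKOV3, these 37 could be called only as higher. For members, the split by GC content and Spearman's rho below are therefore not read as a link with direction in those comparisons. Of the 61 tested members under 50% GC, 47 were higher (77.0%) and 3 lower (4.92%) between the untreated lines, and of the 23 at or over 50% GC, 6 were higher (26.1%) and 9 lower (39.1%). All tested genes split in the same manner: under 50% GC, 70.5% were higher and 14.6% lower, and at or over 50% GC, 18.2% were higher and 62.0% lower. With PAE in SKOV3, 40 members under 50% GC were higher and 1 lower, and 4 at or over 50% were higher and 5 lower. Of all tested genes, 74.0% were higher and 7.13% lower under 50% GC, and 8.94% higher and 64.3% lower at or over it. Between the lines with PAE, where 26.2% of genes under 50% GC were higher and 26.3% lower and 28.4% and 29.3% of the others, 17 of the 61 and 6 of the 23 members were higher and 0 were lower. Spearman's rho between the member's fold change and its GC content was -0.68, -0.64, 0.08 and -0.34 for the untreated lines, PAE in SKOV3, PAE in SKOV3/DDP and the lines with PAE (84 members, a description across genes of the same libraries), and over 15693 genes it was -0.56, -0.78, -0.17 and -0.01.

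With each library's smooth trend with base composition and length taken out, 61 members were higher and 2 lower between the untreated lines. With PAE in SKOV3, 56 were higher and 1 lower, and between the lines with PAE 20 were higher and 2 lower. That fit held 15693 of the 17133 genes. Of all its genes, 5774 were higher and 5243 lower, 4424 and 3437, and 4807 and 4487 in the same 3 comparisons. In the first 2 of these comparisons the calls of higher members were about as many with the trend removed, and most calls of lower members were lost. With the trend removed, SNORD88B, SNORD23, SNORD55 and SNORA52 had log2 fold changes of 0.22, 0.14, 1.25 and 2.0 between the untreated lines. The fit that kept the trend gave -3.21, -3.13, -1.51 and -1.27. The interactions of SNORD88B, SNORD23, SNORD55, SNORA52 and SNORD83B turned to -1.20, -0.087, -0.066, -1.75 and -1.48. The trend was learned only from more abundant genes, those averaging 2 or more in log2 CPM, and most members lay below that level. The turned signs rest on this trend, and whether it holds for genes as short and low as the members was not tested.

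**Figure D5:**
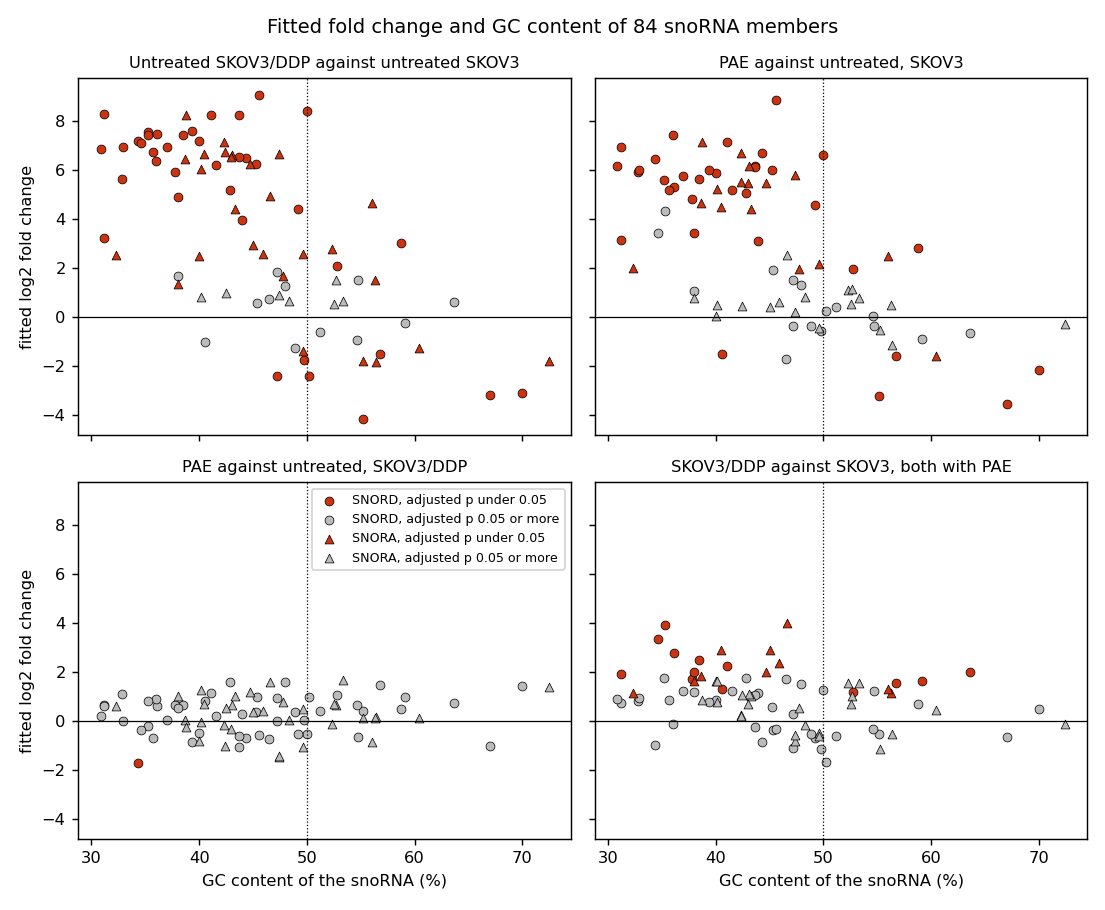
Log2 fold change (vertical axis) of 84 tested members against the GC content of the snoRNA in percent (horizontal axis) in the 4 comparisons between groups. Members under 50% GC lie mostly above 0 for the untreated lines and for PAE in SKOV3, and no such slope is seen for PAE in SKOV3/DDP.

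Several well known snoRNA families were near or at 0. All 118 genes of the imprinted SNORD113 to SNORD116 clusters had 0 counts in the 12 libraries, as did SNORD118 (U8), which acts in large-subunit rRNA maturation. No gene named SCARNA, the guides of small Cajal body RNPs that modify spliceosomal RNAs, carried the snoRNA biotype, since 29 such genes were filed as guide RNAs, and 10 of them had at least 10 counts. These 10 summed to 5.35 ± 1.1 CPM in SKOV3, 2.36 ± 0.455 in SKOV3_PAE, 1.63 ± 0.365 in SKOV3/DDP and 4.45 ± 0.977 in SKOV3/DDP_PAE (mean ± SD, n = 3). The sum without SCARNA12, the single SCARNA gene tested, was 0.513, 0.389, 1.12 and 1.73 CPM in the same order. SCARNA12 had 3.81, 5.54 and 5.17 CPM in SKOV3, 2.5, 1.63 and 1.79 in SKOV3_PAE, 0.461, 0.505 and 0.551 in SKOV3/DDP, and 3.68, 2.96 and 1.54 in SKOV3/DDP_PAE. SCARNA12 was lower in untreated SKOV3/DDP than in SKOV3 (-3.24 ± 0.44, adjusted p = 5.98e-06, edgeR quasi-likelihood test, Benjamini-Hochberg adjusted) and rose with PAE in SKOV3/DDP (2.42 ± 0.43, adjusted p = 0.0013), and its groups did not overlap in either comparison.

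The proteins that package snoRNAs did not move as a set. Of the box C/D core (FBL, the methyltransferase fibrillarin, with NOP56, NOP58 and SNU13), 1 of 4 was higher and 0 lower between the untreated lines. That gene was NOP58, with 10.2, 4.01 and 8.64 CPM in SKOV3 and 63.1, 123 and 66.2 CPM in SKOV3/DDP (3.47 ± 0.36, adjusted p = 3.71e-07, edgeR quasi-likelihood test, Benjamini-Hochberg adjusted), and it also rose with PAE in SKOV3 (4.21 ± 0.37, adjusted p = 8.86e-08), where 2 of the 4 were higher and 2 lower. Of the box H/ACA core, DKC1, the pseudouridine synthase dyskerin (1.41 ± 0.25, adjusted p = 7.75e-05), and GAR1 (1.40 ± 0.21) were higher, and NHP2 (-4.06 ± 0.35) and NOP10 (-1.96 ± 0.24) were lower, and the same genes passed in the same directions with PAE in SKOV3. NHP2 had 230 to 258 CPM in the 3 untreated SKOV3 libraries and at most 40.4 CPM in any other library. With PAE in SKOV3/DDP, NOP56 (0.75 ± 0.23, adjusted p = 0.0261) was the single core gene of either class that passed. Of all genes, 81.8% passed between the untreated lines, 75.3% with PAE in SKOV3 and 26.4% with PAE in SKOV3/DDP.

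Of 11 assembly factors, which load the core proteins onto snoRNAs, 6 were higher and 5 lower between the untreated lines and likewise with PAE in SKOV3. The helicases RUVBL1 and RUVBL2 were lower in both and also with PAE in SKOV3/DDP (-0.80 ± 0.19 and -0.78 ± 0.21), the 2 assembly factors that passed there. Of 9 processing enzymes, 7 were higher and 0 lower between the untreated lines and 8 were higher and 0 lower with PAE in SKOV3, where the shares over all genes were 45.8% and 36.0%, then 42.6% and 32.7%, while 0 passed with PAE in SKOV3/DDP and the interaction was negative for 8. These include DBR1, which opens the intron lariat (0.49 ± 0.25 between the untreated lines, not passing, and 2.32 ± 0.26 with PAE in SKOV3), and the exonuclease EXOSC10 (0.96 ± 0.32 and 1.61 ± 0.32). Of 4 Cajal body proteins, 3 were higher and 1 lower in both of these comparisons. Over the 107 tested hosts of the 205 members, 47 were higher and 38 lower between the untreated lines, 46 and 47 with PAE in SKOV3, 16 and 8 with PAE in SKOV3/DDP, and 33 and 11 between the lines with PAE. Over all genes the shares were 45.8% and 36.0%, 42.6% and 32.7%, 11.8% and 14.7%, and 27.5% and 27.1%. The median host fold was 0.11, -0.18, 0.13 and 0.31 on the log2 scale in that order.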

How the data were processed

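RNA was drawn from 2 cell lines with and without PAE, 3 libraries per group, selected with poly-T beads and made into libraries with the NEBNext Ultra kit (per the labels). The deposited values are raw counts per gene, not normalised, as the authors' counting gave them, with a name, biotype and position for each gene. The submitters' processing notes name HISAT2 2.0.5, StringTie 1.3.3b, DESeq2 and edgeR, without their roles. The program and strand setting used for counting are not given in the sources used here, so reads from overlapping genes on opposite strands cannot be told apart. The 869 loci without a name, 0.126% to 0.678% of a library's counts, were left out, and 0 columns of other samples were found. The members and the gene lists were chosen with earlier results of these data known.

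Counts were fitted for all 4 groups together with edgeR 4.0.16 in R 4.3.3 (TMM factors, filterByExpr, quasi-likelihood F test), and p-values were adjusted by Benjamini-Hochberg over the 17133 genes kept. An adjusted p under 0.05 was called. The interaction term is the PAE effect in SKOV3/DDP minus that in SKOV3. The SE was taken from the fold and its F statistic (size of the log2 fold over root F). CPM are TMM-normalised. Where a group had no count, a floor of 3 counts over its 3 libraries gave a lower bound of the fold. Floors and 95% exact intervals cover counting error only. The labels speak of biological and experimental triplicates without saying which a library is, so p-values measure the spread between these samples, which may be technical. Members were placed on GENCODE 29 (GRCh38), whose positions match those of the files, for host, exon overlap, sequence and GC content. One host gene and one member sequence are not reported here.

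Named members were the 10 with the highest mean CPM, for each comparison the 6 with the largest change of each sign past the threshold and at least 0.5 CPM in the higher group, SCARNA members, members of known units (SNHG1, GAS5, RPL13A, SNORD113 to SNORD116, the SNORD3 copies, SNORD118, SNORA73A and SNORA73B), core proteins and hosts. Members called in both line comparisons, those called against their host, the TAF1D, EIF4A2 and RPS12 hosts, and RUVBL1, RUVBL2, DBR1 and EXOSC10 were named after their values were seen. Same-numbered libraries did not deviate together (correlations of -0.32 to 0.18 between groups), so the main fit had no block. The steps were tested on simulated data. Alternatives were DESeq2 1.42.0, limma-voom (limma 3.58.1), library size only, other filters, a replicate block, fits of 6 libraries, a GC and length trend, members without exon overlap, another threshold and leaving out each library.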

Additional observations from a re-analysis of the deposited data

Results flagged for a closer look

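The PAE effect, tested as an interaction by the edgeR quasi-likelihood test with p adjusted after Benjamini and Hochberg, differed between the lines for 48 of the 96 tested snoRNA genes, beside 62.9% of all genes tested. Each value that follows is the PAE effect in SKOV3/DDP minus that in SKOV3, on the log2 scale. It was positive for SNORD23 (3.62), SNORD55 (3.06), SNORD88B (2.55), SNORD38B (2.33), SNORD83B (1.87) and SNORA52 (1.69). With the trend with base composition and length removed, all of these but SNORD38B turned negative, and by library size only SNORD38B, SNORD83B, SNORD88B and SNORA52 lost their call. The largest negative values were those of SNORD31 (-9.41), SNORD18C (-8.17), SNORA81 (-7.40), SNORD14C (-7.39), SNORA66 (-7.26) and SNORD49A (-7.19), all of them at 0 in untreated SKOV3. The size of such a value depends on the prior count of the fit. These members passed the filter only through the other groups, so their PAE effect in SKOV3 could not be negative. Their negative signs and calls are therefore not read as support for a difference between the lines.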

How the results depend on the processing

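The members called numbered 73 for the untreated lines, 56 for PAE in SKOV3, 2 for PAE in SKOV3/DDP, 27 for the lines with PAE and 48 for the interaction. Leaving out single libraries gave 72 to 83, 54 to 64, 0 to 4, 19 to 29 and 39 to 50. Counting only members that overlap no annotated exon gave 16, 13, 1, 6 and 11, and asking for at least 10 counts in every library left 1 member to test and gave 1, 0, 0, 1 and 0, both because fewer members enter. Fits of the 6 libraries compared gave 46, 21 and 6 for the first 3 comparisons, with fewer members tested. An unadjusted p under 0.05 with an absolute log2 fold change over 2 gave 1 for PAE in SKOV3/DDP and 11 for the lines with PAE. For PAE in SKOV3/DDP, limma-voom gave 7, no filter 4, members with a GC value 1 (chosen after seeing the data), the GC and length trend 4 and the replicate block 1, and the cause was not tested. In the other comparisons the replicate block gave 75, 56, 26 and 41, within 1.5 times. It moved no other count past that limit, the numbers pair no libraries, and DESeq2, limma-voom and library size only stayed within it as well. The split of higher and lower members moved for the untreated lines, from 60 and 13 to 67 and 5 by library size, which shifts the median of all genes to 1.23 (1.36 for PAE in SKOV3), and to 61 and 2 with the GC and length trend removed.

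Removing that trend turned the sign of 13 log2 values for named members: SNORA52 to 2.0 (untreated lines), 2.16 (PAE in SKOV3) and -1.75 (interaction), SNORD23 to 0.14, 1.89 and -0.087, SNORD55 to 1.25, 1.84 and -0.066, SNORD88B to 0.22, 0.47 and -1.20, and the interaction of SNORD83B to -1.48. Of the 95 named results, leaving out a library left 1045 refits on the same side of the threshold and 95 no longer past it, with 0 turned. With library size only, 12 of the named results were no longer past it. Scaled by library totals, the sums for SKOV3, SKOV3_PAE and SKOV3/DDP_PAE were 38.1, 112 and 198 CPM over all members, 18.2, 48.4 and 89.4 for SNORA, 19.9 (SKOV3) and 109 (SKOV3/DDP_PAE) for SNORD, and 3.51 (SKOV3) and 2.84 (SKOV3_PAE) for SCARNA. Without the gene of most counts, SNORA in SKOV3_PAE was 35.7 CPM and SCARNA 0.513, 0.389, 1.12 and 1.73 CPM in SKOV3, SKOV3_PAE, SKOV3/DDP and SKOV3/DDP_PAE. The median member had 65.0 counts over 12 libraries, and the size of difference that could be detected at this depth was not measured.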
